A study of Mus musculus with 9 samples.

Results

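Hepatic gene expression was compared between Cpr-low mice and Cpr-lox control mice, over every probe set of the array that carries a single gene symbol. These were 20380 of the 22626 probe sets that are not array controls, for 12393 genes, of which 8879 were bright enough to be tested, and 6 of the 9 arrays of the study belong to the comparison. The other arrays were from liver-Cpr-null mice and serve here to share the estimate of the spread and, at the end, to show where Cpr-low liver differed from that model. Cpr is NADPH-cytochrome P450 reductase. Per the labels, Cpr-low, liver-Cpr-null and Cpr-lox are transgenic models whose background mixes C57BL/6 with 129/Sv, studied as males of 2 months with 8 or 9 mice per model. As background, Cpr-low mice carry a hypomorphic Cpr allele in all tissues, so that the enzyme is reduced throughout the body, liver-Cpr-null mice lack Cpr in hepatocytes through a Cre recombinase driven by the albumin promoter, and Cpr-lox mice carry the Cpr allele with loxP sites and no Cre. RNA was prepared from individual livers and combined into 3 independent pools per model, each measured on 1 array, so an array averages several mice and p-values measure the spread between pools. The gene for Cpr itself is not among the genes analysed here, and the model labels were not checked against its level.

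Cpr sits in the membrane of the endoplasmic reticulum and passes electrons from NADPH to the microsomal cytochrome P450 enzymes, which oxidise drugs, steroids, bile acid precursors and fatty acids. It also serves squalene epoxidase, the sterol demethylase Cyp51 and heme oxygenase, and a separate route through cytochrome b5 and its reductase can supply some of the same electrons. Liver is the organ with the largest stock of these enzymes, and it adjusts their genes through nuclear receptors that sense drugs, bile acids and fatty acids, and through the sterol-sensing SREBP factors.

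Signals below are the deposited intensities scaled to a common trimmed mean. The order in any set of 3 signals is pools 1, 2 and 3, means have their SD (n = 3 pools), and a log2 fold change is the mean log2(signal + 16) of Cpr-low minus that of Cpr-lox ± SE, a scale that makes changes of dim genes look smaller. A gene is said to have risen or fallen where limma's Benjamini-Hochberg adjusted p over all 8879 genes was under 0.05, and such a gene is said to be called. Before scaling, array medians lay between 171 and 179 and 2% trimmed means between 349 and 384. Cpr-low pool 1 had that lowest trimmed mean and lay away from Cpr-low pools 2 and 3 on the first principal component, which held 35.5% of the variance, at -17.1 against -7.42 and -3.92, where the Cpr-lox pools had -5.88, -2.22 and 2.75. On the second component, with 30.0% of the variance, the Cpr-low pools lay at -10.3, -4.49 and -5.43 and the Cpr-lox pools at 10.2, 13.3 and 12.3. In the run settings Cpr-low pool 1 does not have a hybridization stamp of its own. It shares the first stamp with all 3 Cpr-lox arrays, and Cpr-low pools 2 and 3 were stamped 102 minutes later, on the next date. The earliest scan date holds the Cpr-lox arrays and no others, so the control model and its date of scanning cannot be told apart. Results are therefore given for all pools, without Cpr-low pool 1, and within the first stamp, where Cpr-low pool 1 alone is set against the 3 Cpr-lox pools and is assumed to vary as they do. Beta-actin control probe sets, which compare the 3' end of the transcript with its 5' end, had a signal ratio of 1.25, 1.26 and 1.17 in Cpr-low pools and 1.23, 1.29 and 1.43 in Cpr-lox pools. For Gapdh the same ratio was 2.72, 2.51 and 2.36 in Cpr-low pools and 2.79, 2.60 and 2.71 in Cpr-lox pools.

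Expression of 514 genes differed between Cpr-low and Cpr-lox liver, 5.79% of those tested. Of these 205 rose, or 2.31%, and 309 fell, or 3.48%. Most differences were small: 336 of the 514 were under 1.5-fold, 88 genes rose and 90 fell by at least 1.5-fold, and the median size of a called log2 fold change was 0.49. The 3 Cpr-low signals lay wholly outside the 3 Cpr-lox signals for 512 of the 514, as they did for 21.6% of all tested genes. In Cpr-lox liver the median signal was 842 for rising genes and 1287 for falling genes. Genes that rose are by selection the lower in Cpr-lox, so this order is partly built in. Over all tested genes the median log2 fold change was 0.04. With median scaling 102 rose and 249 fell, so the share of rising calls was 29.1% there and 39.9% in the scaling used here. All 514 kept their sign under each scaling. In whole liver, fewer cells of a type and less RNA per cell cannot be told apart.

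**Figure D1:**
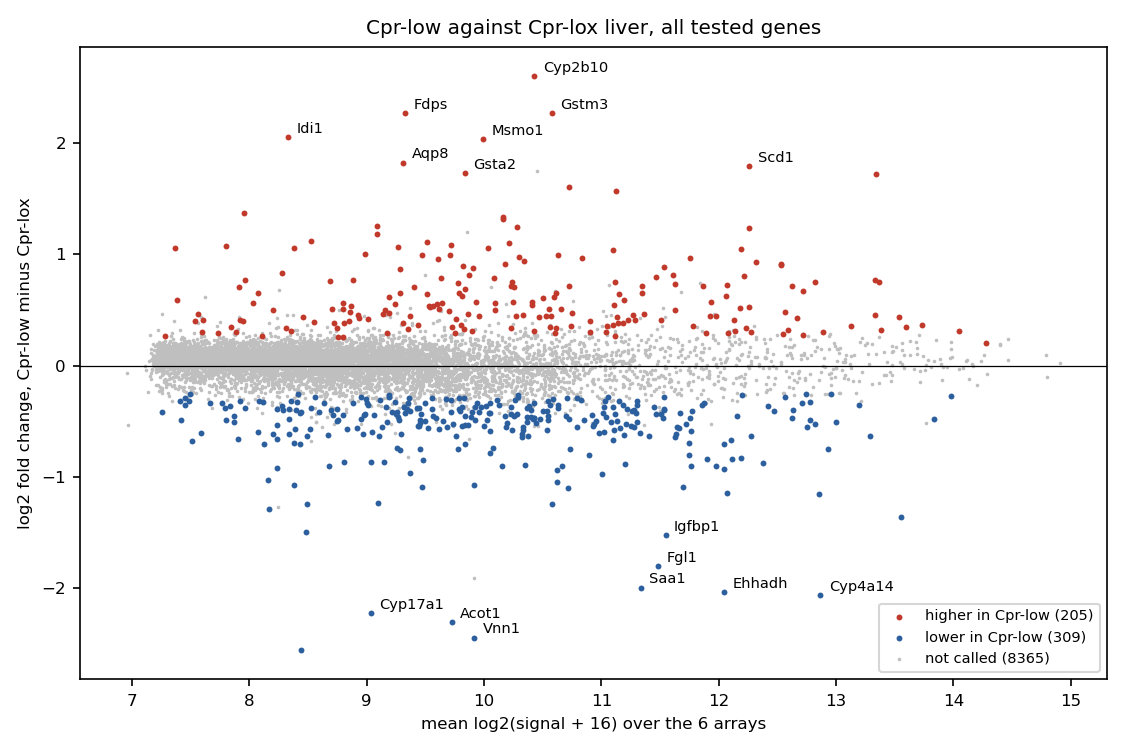
Log2 fold change, Cpr-low minus Cpr-lox, against the mean log2(signal + 16) over the 6 arrays, with 1 point per tested gene, red for the 205 that rose, blue for the 309 that fell and grey for the rest. Named genes are 8 of the largest rises and 8 of the largest falls, among them Cyp2b10 at 2.61 and Vnn1 at -2.44.

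Genes of cholesterol synthesis rose along most of the pathway. Of 8 tested genes of the mevalonate pathway, which builds squalene from acetyl units, 5 rose and 0 fell, where 2.31% of all genes rose and 3.48% fell, and their median log2 fold change was 0.65 beside 0.04 for all genes. Of 10 tested genes that convert squalene into cholesterol, 8 rose and 0 fell, with a median of 0.72. Without Cpr-low pool 1, when 1.78% of all genes rose and 2.17% fell, the rising genes numbered 5 and 7, and within the first stamp, when 1.63% rose and 3.34% fell, 5 and 6. The promoters of Hmgcs1, Idi1 and Msmo1 are shown because these had the largest rises among the called genes of the pathway with a window in the table, in capitals where CCAAT or its reverse complement occurs and, in Hmgcs1 only, a sterol regulatory element, searched as TCACNCCAC. Each window runs from 250 bases before to 50 bases after the gene's start in RefSeq, build GRCm38.p6, and lies at chr13:119690101-119690400 on the plus strand for Hmgcs1, chr13:8885356-8885655 on the plus strand for Idi1 and chr8:64733529-64733828 on the minus strand for Msmo1.
Hmgcs1: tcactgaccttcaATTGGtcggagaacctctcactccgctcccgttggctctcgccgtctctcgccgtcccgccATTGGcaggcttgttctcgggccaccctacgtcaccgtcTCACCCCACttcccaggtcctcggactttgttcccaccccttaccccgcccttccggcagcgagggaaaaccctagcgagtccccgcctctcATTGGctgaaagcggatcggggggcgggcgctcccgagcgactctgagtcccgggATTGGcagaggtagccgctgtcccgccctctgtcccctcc
Idi1: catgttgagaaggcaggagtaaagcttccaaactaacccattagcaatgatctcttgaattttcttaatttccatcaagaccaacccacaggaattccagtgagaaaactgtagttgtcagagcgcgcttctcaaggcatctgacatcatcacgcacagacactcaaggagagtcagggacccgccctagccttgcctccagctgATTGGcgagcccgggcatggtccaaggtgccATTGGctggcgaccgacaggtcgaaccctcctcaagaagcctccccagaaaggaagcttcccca
Msmo1: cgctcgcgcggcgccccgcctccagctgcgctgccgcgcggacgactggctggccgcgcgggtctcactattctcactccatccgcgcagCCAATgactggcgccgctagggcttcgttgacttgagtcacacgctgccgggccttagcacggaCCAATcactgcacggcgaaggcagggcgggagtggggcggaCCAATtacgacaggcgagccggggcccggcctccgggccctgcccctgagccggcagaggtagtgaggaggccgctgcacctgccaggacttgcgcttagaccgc
On either strand TCACNCCAC occurs in 1.24% of the 32851 RefSeq promoter windows and CCAAT in 37.4%. Of the 13 called genes of both groups 10 had a window in the table, 13 windows in all, of which 1 held TCACNCCAC and 10 held CCAAT, and the motifs did not overlap each other in the 3 windows shown. A match of letters is a description and does not show that a factor binds there.

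Hmgcs1, the cytosolic HMG-CoA synthase that starts the pathway, had signals of 3112, 2124 and 3822 in Cpr-low liver, against 977, 1069 and 834 in Cpr-lox liver (log2 fold change 1.60 ± 0.24, adjusted p = 0.00143). Idi1, which isomerises the isoprene unit, had 678, 475 and 811 in Cpr-low and 154, 139.7 and 133 in Cpr-lox (2.05 ± 0.19, adjusted p = 7.89e-05). Fdps, farnesyl diphosphate synthase, had 1622, 1064 and 1573 in Cpr-low and 216, 333 and 291 in Cpr-lox (2.27 ± 0.26, adjusted p = 2.44e-04). In all 3 genes the lowest Cpr-low pool was pool 2, and each Cpr-low pool was above each Cpr-lox pool. Pmvk, phosphomevalonate kinase, rose by 0.59 ± 0.09 and Fdft1, squalene synthase, by 0.71 ± 0.11, although 1 of 3 dimmer Fdft1 probe sets had -0.0015 (adjusted p = 0.995). After squalene, Msmo1, the sterol methyl oxidase, had 2182, 1491 and 2648 in Cpr-low and 408, 554 and 511 in Cpr-lox (2.04 ± 0.30, adjusted p = 0.00140). Sqle, the squalene epoxidase that takes electrons from Cpr, had 1003, 598 and 938 in Cpr-low and 328, 383 and 305 in Cpr-lox (1.25 ± 0.19). Cyp51, the lanosterol demethylase and itself a cytochrome P450, had 209, 211 and 249 in Cpr-low and 89.5, 105 and 101 in Cpr-lox (1.06 ± 0.16, adjusted p = 0.00143). Pool 2 was again below Cpr-low pool 3 in each of these genes. Dhcr7, the reductase of the last step, rose by 1.11 ± 0.14, and Nsdhl, which removes sterol carbons together with Msmo1, by 0.88 ± 0.10. Of 14 tested genes of sterol regulation and uptake 2 rose and 0 fell, and the median was -0.05. Srebf1, which encodes the SREBP of fatty acid synthesis, had 2163, 1545 and 1174 in Cpr-low and 795, 622 and 1154 in Cpr-lox (0.91 ± 0.22, adjusted p = 0.0262), and the other riser, the sterol carrier Stard4, named after its value was seen, had 0.56 ± 0.13. Srebf2, the SREBP of sterol synthesis, had 467, 439 and 385 in Cpr-low and 405, 465 and 385 in Cpr-lox, which overlap (0.04 ± 0.10, adjusted p = 0.851). Srebf1 was not called without Cpr-low pool 1 or 2 or Cpr-lox pool 1 or 2, or with the deposited or median scaling (adjusted p = 0.0544 to 0.124) and Stard4 without Cpr-low pool 1 (adjusted p = 0.0797). The genes of HMG-CoA reductase, the LDL receptor and Insig1 were too dim to be tested.

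Among the enzymes of drug metabolism the rises were widespread in some families and sparse in others. Of 31 tested cytochrome P450 genes of families 1 to 3, the drug-metabolising families, 7 rose and 1 fell, with a median of 0.15. Cyp2b10, a standard target of the drug-sensing receptor CAR, had signals of 3051, 3792 and 3356 in Cpr-low and 291, 659 and 828 in Cpr-lox, the largest rise of any gene (2.61 ± 0.27, adjusted p = 1.30e-04). Cyp2c55 had 280.5, 363 and 553 in Cpr-low and 147, 138 and 131 in Cpr-lox (1.37 ± 0.18), and its Cpr-low pools differed among themselves by more than the lowest of them lay above Cpr-lox. Cyp1a2, which oxidises caffeine, rose by 0.92 ± 0.11, Cyp2c29 by 0.77 ± 0.11 and Cyp3a11 by 0.31 ± 0.05. Cyp2c39 was the only member of the list to fall, with 1669, 1422 and 1302 in Cpr-low and 2665, 3048 and 2922 in Cpr-lox (-0.97 ± 0.13, adjusted p = 7.75e-04). Members of the Cyp2c cluster are near-identical copies, so their probe sets may share signal. Nr1i3, which encodes CAR, had 1473, 1286 and 1261 in Cpr-low and 1621, 1485 and 1647 in Cpr-lox and did not pass (-0.24 ± 0.08, adjusted p = 0.130). Ahr, the aryl hydrocarbon receptor, had 616, 513 and 682 in Cpr-low and 357, 268 and 428 in Cpr-lox (0.77 ± 0.15, adjusted p = 0.00772), whereas its dimmer probe set had 0.05 (adjusted p = 0.791). Of family 4, the fatty acid hydroxylases, 2 rose and 1 fell of 8. These were Cyp4f14, with 2425, 2102 and 2168 in Cpr-low and 1329.8, 800.0 and 1278 in Cpr-lox (1.00 ± 0.17), Cyp4v3 at 0.45 ± 0.09, and Cyp4a14, described with the PPAR-alpha targets. A less bright probe set did not pass for Cyp4v3 (0.47, adjusted p = 0.0623). Cyp3a11 was not called within the first stamp, or with median scaling (adjusted p = 0.0573 to 0.0939) and Cyp4v3 without Cpr-lox pool 2, within the first stamp, or with the deposited or median scaling (adjusted p = 0.0591 to 0.168). Of the heme genes, 1 rose and 0 fell of 17 tested. Alas1, the liver's first enzyme of heme synthesis, had 2642, 3125 and 3640.3 in Cpr-low and 3505, 3347 and 2872 in Cpr-lox, with overlap (-0.05 ± 0.13, adjusted p = 0.849).

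Most glutathione S-transferases, which conjugate reactive compounds, rose: of 20 tested, 12 rose and 1 fell, with a median of 0.53, and 16 had Cpr-low signals above all Cpr-lox signals, where 10.9% of all genes did. Gstm3 had 3740.4, 3043 and 3291 in Cpr-low and 614, 703 and 735 in Cpr-lox (2.27 ± 0.12, adjusted p = 1.04e-06). Gsta2 had 1329.6, 1509.7 and 2252 in Cpr-low and 481, 366 and 653 in Cpr-lox (1.73 ± 0.23, adjusted p = 7.57e-04). The mu-class enzymes are close paralogs, and Gstm1, Gstm2 and Gstm6 rose by 0.76 ± 0.07, 1.07 ± 0.10 and 1.01 ± 0.10, while Gsta3 and Gsta4 rose by 1.24 ± 0.10 and 0.82 ± 0.12. Carboxylesterases, which hydrolyse ester drugs and lipids, had 6 rising and 0 falling of 10, with a median of 0.61. Ces2a had 4981, 5003 and 4462 in Cpr-low and 2652, 2156 and 2601 in Cpr-lox (0.96 ± 0.09, adjusted p = 6.45e-05), and Ces2e had 954, 878 and 1140.3 in Cpr-low and 577, 405 and 495 in Cpr-lox (0.99 ± 0.12). Of glucuronidation and sulfation genes 2 of 18 rose, Ugt2b34 by 0.35 ± 0.08 and Ugt2a3 by 0.36 ± 0.10 (both named after their values were seen), and 0 fell. Within the first stamp the glutathione S-transferases had 10 rising and the carboxylesterases 4. Rising carboxylesterases numbered 3 without Cpr-low pool 2 or 3 or Cpr-lox pool 2, or with the deposited or median scaling. Rising genes of glucuronidation and sulfation numbered 0 without Cpr-low pool 2 or 3 or Cpr-lox pool 1 or 2, within the first stamp, or with the deposited or median scaling and 1 on leaving out liver-Cpr-null pool 1, 2 or 3. Ugt2b34 was not called within the first stamp (adjusted p = 0.302) and Ugt2a3 without Cpr-low pool 1, or within the first stamp (adjusted p = 0.0719 to 0.251).

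Rises were also seen among oxidising enzymes that do not depend on Cpr. Of 33 tested genes of flavin, alcohol and aldehyde oxidation 12 rose and 2 fell, with a median of 0.23. Aldh1a7 had 4298, 3730.0 and 4418 in Cpr-low and 2278, 2227 and 2556 in Cpr-lox (0.81 ± 0.11, adjusted p = 7.57e-04). Aldh1l1, the cytosolic formyltetrahydrofolate dehydrogenase, had 8603, 8143 and 8750.1 in Cpr-low and 5275, 5106 and 5662 in Cpr-lox (0.67 ± 0.07), but its other probe set had 0.23 (adjusted p = 0.349). Aldh1a1, which makes retinoic acid, rose by 0.44 ± 0.06 and Xdh, xanthine dehydrogenase, by 0.55 ± 0.11. Rising members numbered 4 within the first stamp, or with median scaling and 6 on leaving out Cpr-lox pool 2. Falling members numbered 0 without Cpr-low pool 1 or 3 or Cpr-lox pool 2 and 1 on leaving out Cpr-low pool 2, Cpr-lox pool 1 or liver-Cpr-null pool 3, within the first stamp, or with the deposited, median or quantile scaling. Among 9 electron transfer partners other than Cpr, 3 rose and 0 fell. Cyb5b, the outer mitochondrial membrane form of cytochrome b5, had 1763, 1926 and 2044 in Cpr-low and 870.1, 724 and 793 in Cpr-lox (1.25 ± 0.09, adjusted p = 1.09e-05). Cyb5r3, the cytochrome b5 reductase, had 4128, 4037 and 4064 in Cpr-low and 2588, 2207 and 2554 in Cpr-lox (0.73 ± 0.08, adjusted p = 1.20e-04). Both sets of Cpr-low values were narrow and clear of Cpr-lox. Pgrmc1, a heme-binding membrane protein known to associate with cytochrome P450 enzymes, rose by 0.36 ± 0.07, and the microsomal cytochrome b5 gene Cyb5a had 0.16 ± 0.06 (adjusted p = 0.137). The pentose phosphate pathway, a source of NADPH, had 3 rising and 0 falling of 7 tested, Tkt by 0.45 ± 0.09, Pgd by 0.44 ± 0.10 and Taldo1 by 0.35 ± 0.08. Rising genes of that pathway numbered 0 within the first stamp, or with median scaling and 1 on leaving out Cpr-low pool 3. With other probe sets the test was not passed by Cyb5r3 (1 of 3 further probe sets, largest adjusted p = 0.681) and Pgd (1 of 3 further probe sets, largest adjusted p = 0.133). Pgrmc1 was not called within the first stamp, or with the deposited or median scaling (adjusted p = 0.0608 to 0.197), Tkt within the first stamp, or with median scaling (adjusted p = 0.0693 to 0.122) and Pgd without Cpr-low pool 1 or 3 or Cpr-lox pool 3, within the first stamp, or with median scaling (adjusted p = 0.0533 to 0.126). Taldo1 was not called without Cpr-low pool 2 or 3 or Cpr-lox pool 1 or 2, within the first stamp, or with the deposited or median scaling (adjusted p = 0.0566 to 0.190).

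Several genes of fatty acid synthesis rose, and several of polyunsaturated fatty acid elongation fell. Of 22 tested genes that make fatty acids and triglycerides 8 rose and 1 fell, with a median of 0.21. Acly, which makes cytosolic acetyl-CoA from citrate, had 1518, 1449 and 1692 in Cpr-low and 948, 925 and 874 in Cpr-lox (0.75 ± 0.08, adjusted p = 2.04e-04). Acss2, which makes it from acetate, had 1592, 1228 and 1709.9 in Cpr-low and 687, 597 and 881 in Cpr-lox (1.05 ± 0.17). Fasn, fatty acid synthase, had 1453, 903 and 1356 in Cpr-low and 455, 787 and 503 in Cpr-lox (1.08 ± 0.20, adjusted p = 0.00574). Cpr-low pool 2 was the lowest Cpr-low pool in each, close to the highest Cpr-lox pool for Fasn. Scd1, the desaturase that makes monounsaturated fatty acids, had 9221, 7948 and 10380.2 in Cpr-low, against a wide 5184, 2203 and 1566 in Cpr-lox (1.80 ± 0.30, adjusted p = 0.00320). Rising genes of synthesis numbered 4 without Cpr-low pool 1, or with the deposited or median scaling and 5 on leaving out Cpr-low pool 2 or Cpr-lox pool 1 or 2, or within the first stamp. Scd1 was not called within the first stamp (adjusted p = 0.0527).

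Of 13 tested genes of polyunsaturated fatty acid desaturation and elongation 0 rose and 4 fell, and the median was -0.03. Elovl2 and Elovl5 elongate long polyunsaturated fatty acids, and Hacd3 and Hacd1 dehydrate the elongation intermediate. Elovl5 had 3039, 3139 and 2986 in Cpr-low and 5683, 6937 and 5022 in Cpr-lox (-0.93 ± 0.11, adjusted p = 2.54e-04). Elovl2 had 1478, 1849 and 1863 in Cpr-low and 3265, 3307 and 2989 in Cpr-lox (-0.88 ± 0.10, adjusted p = 2.44e-04). No Cpr-low pool reached the lowest Cpr-lox pool in either. Hacd3 fell by 0.52 ± 0.10 and Hacd1 by 0.49 ± 0.10 on the log2 scale, and all 4 also fell without Cpr-low pool 1 and within the first stamp. Dimmer probe sets did not pass for Hacd3 (1 of 2 further probe sets, largest adjusted p = 0.501). Hacd1 was not called without Cpr-lox pool 2 (adjusted p = 0.0656).

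Genes of fatty acid oxidation fell in both organelles that carry it out. Of 22 tested genes of mitochondrial beta-oxidation 0 rose and 11 fell, with a median of -0.39, and without Cpr-low pool 1 10 fell. The falls included entry steps. Slc22a5, the carnitine importer of the plasma membrane, had 379, 477 and 524 in Cpr-low and 836, 1084 and 827 in Cpr-lox (-0.97 ± 0.12, adjusted p = 5.58e-04), with a dimmer probe set at -0.15 (adjusted p = 0.447). Cpt1a, the carnitine palmitoyltransferase that gates mitochondrial entry, had 2087, 2704 and 2848 in Cpr-low and 4608, 4979 and 4623 in Cpr-lox (-0.90 ± 0.10, adjusted p = 2.34e-04). Slc25a20, the carnitine-acylcarnitine carrier, fell by 0.67 ± 0.10 on the log2 scale. In the oxidation cycle, Hadhb, a subunit of the trifunctional protein, had 3104, 3738 and 3088 in Cpr-low and 5583, 5585 and 5047 in Cpr-lox (-0.71 ± 0.08). Eci1, the enoyl-CoA isomerase for unsaturated chains, had 2723, 3013 and 2823 in Cpr-low and 5027, 5689 and 4664 in Cpr-lox (-0.84 ± 0.08, adjusted p = 7.89e-05). Every Cpr-low pool was below every Cpr-lox pool in these genes, and Cpr-low pool 1 was the lowest for Slc22a5 and Cpt1a. Less bright probe sets did not pass for Cpt1a (1 of 2 further probe sets, largest adjusted p = 0.174) and Slc25a20 (-0.43, adjusted p = 0.0622). 

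In the peroxisome, which shortens very long chains, 0 rose and 9 fell of 22 tested, with a median of -0.27, where 5 fell when either Cpr-low pool 1 or Cpr-lox pool 2 was left out. Ehhadh, the peroxisomal bifunctional enzyme and a PPAR-alpha target, had 1489, 2298 and 2599.8 in Cpr-low and 8057, 11164 and 6902 in Cpr-lox (-2.03 ± 0.19, adjusted p = 7.89e-05). Acaa1b, a peroxisomal thiolase, had 12083, 12911 and 12098 in Cpr-low and 17549, 18497 and 15901 in Cpr-lox (-0.48 ± 0.07). Eci2, another enoyl-CoA isomerase, fell by 0.55 ± 0.11 on the log2 scale. Of acyl-CoA thioesterases, which release fatty acids from coenzyme A, and pantetheinases, which recycle its pantothenate, 0 rose and 5 fell of 15, and the median was -0.04. Acot1 had 302, 456 and 352 in Cpr-low and 1973, 2509 and 1303 in Cpr-lox (-2.30 ± 0.19, adjusted p = 4.09e-05), and the pantetheinase Vnn1 had 230.2, 509.6 and 534 in Cpr-low and 2176, 2543 and 2029.8 in Cpr-lox (-2.44 ± 0.24, adjusted p = 8.35e-05). Acot3, Acot4 and Acot12 had -0.63 ± 0.08, -0.66 ± 0.12 and -0.55 ± 0.09, and a second Acot4 probe set had -0.25 (adjusted p = 0.267). The fatty acid hydroxylase Cyp4a14 had 1269, 6065 and 6240.1 in Cpr-low and 14653, 16613 and 14618 in Cpr-lox (-2.06 ± 0.43, adjusted p = 0.0117), and -1.31 without Cpr-low pool 1, the lowest of the 6. Cyp4a14 was not called without Cpr-lox pool 2 (adjusted p = 0.0526). Ppara, the gene of the receptor itself, was too dim to be tested.

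Among genes of fasting and of lipid storage nearly all calls were falls. Of 18 tested genes of ketogenesis and fasting signals 0 rose and 7 fell, with a median of -0.30, where 4 fell when either Cpr-low pool 1 or Cpr-lox pool 2 was left out. Mgll, which releases the last fatty acid from a glyceride, had 887, 998 and 946 in Cpr-low and 1925, 2054 and 1383 in Cpr-lox (-0.89 ± 0.13, adjusted p = 0.00135), with 1 of 3 further probe sets at 0.13 (adjusted p = 0.552). Creb3l3, a fasting-induced transcription factor of the liver, fell by 0.34 ± 0.07 on the log2 scale. Of 23 tested genes of lipid uptake and lipid droplets 1 rose and 9 fell, and the median was -0.08. Plin2, the coat protein of hepatic lipid droplets, had 5180.2, 7153 and 5889.9 in Cpr-low and 10275, 12490.2 and 8148 in Cpr-lox (-0.75 ± 0.14, adjusted p = 0.00620). Pnpla2, the triglyceride lipase of the droplet, had 930.3, 990.1 and 996 in Cpr-low and 1428, 1643 and 1331 in Cpr-lox (-0.58 ± 0.09). Fabp2, a fatty acid binding protein best known from intestine, had 1024, 962 and 955 in Cpr-low and 2508, 2366 and 2157 in Cpr-lox (-1.24 ± 0.12, adjusted p = 9.05e-05). Apoa4, an apolipoprotein of triglyceride-rich particles, had 7876, 8895 and 6031 in Cpr-low and 16928, 21338 and 19737 in Cpr-lox (-1.36 ± 0.14, adjusted p = 1.12e-04). The Cpr-low range of each of these genes lay wholly below the Cpr-lox range. Lpl, the lipoprotein lipase that liver makes little of, was the only riser of the list (0.40 ± 0.09, adjusted p = 0.0189). Cd36, the fatty acid transporter, had 96.3, 102 and 119.7 in Cpr-low and 119, 105 and 111 in Cpr-lox, with overlap (-0.07 ± 0.10, adjusted p = 0.736). Creb3l3 was not called without Cpr-lox pool 2, or within the first stamp (adjusted p = 0.0566 to 0.0722) and Lpl without Cpr-low pool 1 (adjusted p = 0.0698). Of 24 genes of apolipoproteins and VLDL assembly 3 rose and 4 fell, with a median of -0.02. The falling genes of that list numbered 2 without Cpr-low pool 1 or Cpr-lox pool 2 or 3. The rising genes there numbered 1 without Cpr-low pool 1 or 2 or Cpr-lox pool 2, or with median scaling.

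Bile acid and steroid genes split in both directions. Of 18 tested bile acid synthesis genes 4 rose and 3 fell, and the median was 0.06. Cyp7a1, the rate-limiting P450 of the classic route, had 1585, 1701 and 1983 in Cpr-low and 893, 678 and 1130.4 in Cpr-lox (0.97 ± 0.15, adjusted p = 0.00222), while its dimmer probe set had 0.36 (adjusted p = 0.141). Cyp7b1, the oxysterol hydroxylase of the alternative route, went the other way, with 2135, 2472 and 2202 in Cpr-low and 4157, 4681 and 5820.4 in Cpr-lox (-1.09 ± 0.13, adjusted p = 3.61e-04). The reductases Akr1d1, Akr1c14 and Akr1c6, which act on bile acid intermediates and steroids, rose by 0.90 ± 0.18, 1.11 ± 0.24 and 0.46 ± 0.08. Nr0b2, which encodes the repressor SHP, had 959, 986 and 772 in Cpr-low and 1116, 820.3 and 1215 in Cpr-lox and did not pass (-0.20 ± 0.19, adjusted p = 0.625). Among the exporters of the bile canaliculus, Abcb11, the bile salt pump, had 3459, 3894 and 3796 in Cpr-low and 2029, 1981 and 2417 in Cpr-lox (0.79 ± 0.09, adjusted p = 2.32e-04). Abcb4, which moves phospholipid into bile, had 2325, 3285 and 3315 in Cpr-low and 5122, 6421 and 5081 in Cpr-lox (-0.90 ± 0.14, adjusted p = 0.00188). The bile salt pump was higher and the phospholipid exporter lower in every Cpr-low pool. Slco1a4, an uptake transporter of organic anions, rose by 0.51 ± 0.09, and with these 3 the list of 15 tested transporters had 2 rising and 1 falling. Rising bile acid synthesis genes numbered 0 within the first stamp, 1 with median scaling and 2 on leaving out Cpr-lox pool 2. Falling bile acid synthesis genes numbered 1 without Cpr-low pool 1 or Cpr-lox pool 2. With a second probe set the test was not passed by Akr1d1 (0.89, adjusted p = 0.100). Cyp7a1 was not called within the first stamp (adjusted p = 0.0546), Akr1d1 without Cpr-lox pool 2, within the first stamp, or with median scaling (adjusted p = 0.0634 to 0.116) and Akr1c14 without Cpr-lox pool 2, within the first stamp, or with median scaling (adjusted p = 0.0700 to 0.164). Akr1c6 was not called within the first stamp, or with median scaling (adjusted p = 0.0590 to 0.0740) and Slco1a4 within the first stamp (adjusted p = 0.0886).

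Of 15 tested genes of steroid hormone metabolism 4 rose and 3 fell, with a median of 0.22. Cyp17a1, the steroid hydroxylase and lyase, had 228, 246 and 208 in Cpr-low, against a wide 518, 2007 and 1335 in Cpr-lox (-2.22 ± 0.34, adjusted p = 0.00175). Hsd3b3, a hydroxysteroid dehydrogenase, had 1651, 1008 and 962 in Cpr-low and 518, 534 and 701 in Cpr-lox (1.00 ± 0.20, adjusted p = 0.00987). Serpina6, the corticosteroid-binding globulin of plasma, had 2541, 3461 and 3451 in Cpr-low and 1546, 958 and 2329 in Cpr-lox (1.04 ± 0.24, adjusted p = 0.0238). None of the 3 genes overlapped between models, though Cyp17a1 varied far more among the Cpr-lox pools than among the Cpr-low pools. Hsd3b family members are near-identical copies whose probe sets may share signal. Rising genes of the list numbered 0 without Cpr-lox pool 2, 1 on leaving out Cpr-low pool 2, or with the deposited or median scaling and 2 on leaving out Cpr-low pool 1 or 3, Cpr-lox pool 1 or liver-Cpr-null pool 3, or within the first stamp. Hsd3b3 was not called without Cpr-lox pool 2 (adjusted p = 0.0501) and Serpina6 without Cpr-low pool 2 or 3 or Cpr-lox pool 1 or 2, within the first stamp, or with the deposited or median scaling (adjusted p = 0.0553 to 0.209).

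Among protein folding and degradation genes all calls were falls. Of 21 tested heat shock proteins 0 rose and 6 fell, with a median of -0.26, and 11 had Cpr-low signals below all Cpr-lox signals, where 10.6% of all genes did. The promoter of Hsph1 is shown because it was the only called gene of the list with a heat shock element in a promoter window. Its window lies at chr5:149636287-149636586 on the minus strand of GRCm38.p6, from 250 bases before to 50 after the RefSeq start, and the capitals mark the match, searched on both strands as 3 blocks, GAA, TTC and GAA or TTC, GAA and TTC, with any 2 bases between blocks.
Hsph1: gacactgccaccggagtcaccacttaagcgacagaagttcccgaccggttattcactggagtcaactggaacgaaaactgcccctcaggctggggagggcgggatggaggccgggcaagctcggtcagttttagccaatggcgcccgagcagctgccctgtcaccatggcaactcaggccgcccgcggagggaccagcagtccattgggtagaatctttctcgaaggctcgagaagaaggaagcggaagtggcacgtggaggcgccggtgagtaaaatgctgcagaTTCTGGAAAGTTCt
Such a match occurs in 0.603% of the 32851 promoter windows, and among the 6 called heat shock genes, 4 of which had 6 windows in the table, 2 windows of 1 gene held it.

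Hsph1, a nucleotide exchange factor for Hsp70, had signals of 331, 606 and 524 in Cpr-low and 787, 1084 and 1254 in Cpr-lox (-1.09 ± 0.21, adjusted p = 0.00671), and its dimmer probe set had -0.70 (adjusted p = 0.0678). Hsp90aa1, the inducible Hsp90, had 753, 1251 and 1329 in Cpr-low and 1735, 2804 and 2337 in Cpr-lox (-1.05 ± 0.20, adjusted p = 0.00623). Hspa8, the constitutive Hsp70, had 2814, 4002 and 3773 in Cpr-low and 5596, 6907 and 6249 in Cpr-lox (-0.83 ± 0.12, adjusted p = 0.00116). Cpr-low pool 1 was the lowest array in all 3, and without it the log2 fold changes were -0.84 for Hsph1, -0.79 for Hsp90aa1 and -0.68 for Hspa8. Cct2, a subunit of the cytosolic chaperonin, fell by 0.62 ± 0.15 and Ahsa1, an activator of Hsp90, by 0.47 ± 0.11 on the log2 scale. In the endoplasmic reticulum 0 rose and 4 fell of 51 tested genes of folding and secretion, a median of 0.00. The members that fell were Hspa5, the main chaperone there, at -0.56 ± 0.13, the co-chaperone Dnajc3 at -0.51 ± 0.10, Selenos at -0.43 ± 0.11 and the transcription factor Xbp1 at -0.38 ± 0.09. Dimmer probe sets did not pass for Cct2 (1 of 2 further probe sets, largest adjusted p = 0.0748), Hspa8 (1 of 3 further probe sets, largest adjusted p = 0.0688), Hspa5 (-0.50, adjusted p = 0.123), Selenos (2 of 2 further probe sets, -0.34 to -0.22, smallest adjusted p = 0.0989) and Xbp1 (3 of 3 further probe sets, -0.33 to -0.06, smallest adjusted p = 0.167). Falling heat shock genes numbered 3 without Cpr-lox pool 2. Falling genes of the endoplasmic reticulum numbered 1 without Cpr-low pool 1 or Cpr-lox pool 2 or 3, or with median scaling and 2 with the deposited scaling. Cct2 was not called without Cpr-lox pool 2 or 3, or with the deposited or median scaling (adjusted p = 0.0566 to 0.107), Ahsa1 without Cpr-low pool 1 or Cpr-lox pool 2 (adjusted p = 0.0754 to 0.0973) and Hspa5 without Cpr-low pool 1 or Cpr-lox pool 2 or 3, or with median scaling (adjusted p = 0.0711 to 0.100). Selenos was not called without Cpr-low pool 1, Cpr-lox pool 1, 2 or 3 or liver-Cpr-null pool 3, or with the deposited or median scaling (adjusted p = 0.0517 to 0.134) and Xbp1 without Cpr-low pool 1 or 2 or Cpr-lox pool 2 or 3, or with the deposited or median scaling (adjusted p = 0.0518 to 0.112). Both further probe sets of Dnajc3 were near 0, at -0.07 and -0.04 (smaller adjusted p = 0.809).

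Of 44 tested subunits of the proteasome, the protease that degrades ubiquitinated proteins, 0 rose and 14 fell, with a median of -0.22, and 25 of the 44 had all Cpr-low signals below all Cpr-lox signals. The falling subunits numbered 9 without Cpr-low pool 1, with a median of -0.19, 8 without Cpr-lox pool 2 and 12 within the first stamp. The ATPase subunit Psmc6 had 623, 696 and 728 in Cpr-low and 992, 1187 and 1028 in Cpr-lox (-0.63 ± 0.10, adjusted p = 0.00160). The lid subunit Psmd6 had 1926, 2216 and 1882 in Cpr-low and 2744, 3178 and 2868 in Cpr-lox (-0.54 ± 0.08, adjusted p = 0.00190). Psmc2, another ATPase, had -0.50 ± 0.09, the assembly chaperone Psmd9 had -0.50 ± 0.08 and the alpha-ring subunit Psma6 had -0.44 ± 0.08. Second probe sets did not pass for Psmc6 at -0.24 (adjusted p = 0.426), Psmd6 at -0.90 (adjusted p = 0.133), Psmd9 at 0.02 (adjusted p = 0.945) and Psma6 at -0.12 (adjusted p = 0.474). Translation genes had smaller differences: 0 rose and 6 fell of 50 translation factors (median -0.15), and 0 rose and 3 fell of 39 cytosolic ribosomal proteins (median -0.11). Eif3d, a subunit of an initiation complex, had 750.4, 876 and 810.1 in Cpr-low and 1041, 1129 and 1105 in Cpr-lox (-0.42 ± 0.09), and the small-subunit protein Rps9 had 2126, 2000.2 and 1994 in Cpr-low and 2603, 2714 and 2534 in Cpr-lox (-0.36 ± 0.07). Falling translation factors numbered 0 without Cpr-lox pool 2, 1 on leaving out Cpr-low pool 1 and 3 on leaving out Cpr-low pool 2, Cpr-lox pool 3 or liver-Cpr-null pool 1 or 3. Falling ribosomal protein genes numbered 0 within the first stamp and 1 on leaving out Cpr-low pool 1 or 2 or Cpr-lox pool 2. Eif3d was not called without Cpr-lox pool 2 (adjusted p = 0.0589) and Rps9 within the first stamp (adjusted p = 0.146).

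Among genes under hormonal control more fell than rose over all pools, as among all tested genes, of which 3.48% fell and 2.31% rose. Without Cpr-low pool 1 the glucocorticoid list had 2 rising and 1 falling, and the growth hormone list 1 and 3. Of 28 tested glucocorticoid targets and metallothioneins 2 rose and 7 fell, with a median of -0.28, and the falling genes numbered 1 without Cpr-low pool 1, 2 on leaving out Cpr-lox pool 2 and 4 on leaving out Cpr-low pool 2 or 3 or Cpr-lox pool 3, or with median scaling. The metal-binding Mt2 had 1967, 2772 and 4371 in Cpr-low and 4759.8, 6316 and 8673 in Cpr-lox (-1.15 ± 0.24, adjusted p = 0.0127). Igfbp1, a binding protein of insulin-like growth factors that is high in fasting, had 845, 2436 and 2586 in Cpr-low and 3887, 8291 and 4031 in Cpr-lox (-1.53 ± 0.36, adjusted p = 0.0238). For both, Cpr-low pool 1 was the lowest array, and Igfbp1 had -1.01 without it. Tsc22d3, the glucocorticoid-induced leucine zipper gene, had 1559.7, 1551 and 1818 in Cpr-low and 1020.0, 1181 and 1100.2 in Cpr-lox (0.57 ± 0.12, adjusted p = 0.0145). Of the growth hormone axis and sex-biased liver genes 1 rose and 5 fell of 29, and the median was 0.05. Ghr, the growth hormone receptor, had 3547, 3648 and 5003 in Cpr-low and 2348, 1673 and 2604 in Cpr-lox (0.88 ± 0.17, adjusted p = 0.00915). Igf1, the growth factor that the receptor induces in liver, had 6022, 6280.1 and 5572 in Cpr-low and 7411, 7366 and 7807 in Cpr-lox (-0.34 ± 0.09, adjusted p = 0.0354). Igfbp2 had 3663, 4526 and 3761 in Cpr-low and 6881, 5774 and 5874 in Cpr-lox (-0.63 ± 0.10). The receptor gene was higher and Igf1 and Igfbp2 lower in every Cpr-low pool. Rising glucocorticoid targets numbered 0 without Cpr-lox pool 1, or with median scaling and 1 on leaving out Cpr-low pool 2 or 3 or Cpr-lox pool 2, within the first stamp, or with the deposited scaling. Falling genes of the growth hormone list numbered 3 without Cpr-low pool 1 or Cpr-lox pool 2, or within the first stamp. Less bright probe sets did not pass for Tsc22d3 (1 of 2 further probe sets, largest adjusted p = 0.287) and Igf1 (2 of 2 further probe sets, -0.45 to -0.25, smallest adjusted p = 0.0810). Mt2 was not called without Cpr-low pool 1, or with median scaling (adjusted p = 0.0554 to 0.0557), Igfbp1 without Cpr-low pool 1 or Cpr-lox pool 2, or with median scaling (adjusted p = 0.0512 to 0.111) and Tsc22d3 without Cpr-lox pool 1, or with median scaling (adjusted p = 0.0553 to 0.0845). Ghr was not called within the first stamp, or with median scaling (adjusted p = 0.0624 to 0.0739) and Igf1 without Cpr-low pool 1, 2 or 3, Cpr-lox pool 1, 2 or 3 or liver-Cpr-null pool 1, within the first stamp, or with quantile normalization (adjusted p = 0.0507 to 0.108).

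Acute phase proteins, which the liver secretes in inflammation, did not move together. Of 34 tested 4 rose and 6 fell, with a median of -0.12. The rising ones numbered 2 without Cpr-low pool 1 or 2 or Cpr-lox pool 1 or 2, or with the deposited or median scaling. The falling ones numbered 3 without Cpr-low pool 1, or with median scaling. Saa1, serum amyloid A1, had 1345, 913 and 1706 in Cpr-low and a very wide 4908, 2255 and 12325 in Cpr-lox (-2.00 ± 0.43, adjusted p = 0.0141). Lrg1, a secreted leucine-rich glycoprotein, had 3298, 2567 and 2639 in Cpr-low and 4204, 4163 and 4399 in Cpr-lox (-0.59 ± 0.11). Lbp, which binds bacterial lipopolysaccharide, had 1524, 1942 and 1977 in Cpr-low and 2426, 2505 and 2765 in Cpr-lox (-0.50 ± 0.10). These 3 were below Cpr-lox in every pool. Hamp2, a paralog of the iron hormone hepcidin, had 8858, 7185 and 8288 in Cpr-low and 4786, 4239 and 3943 in Cpr-lox (0.90 ± 0.14, adjusted p = 0.00228), although its second probe set had 0.02 (adjusted p = 0.934). Steap4, a metalloreductase, had 482, 512 and 579 in Cpr-low and 282, 287 and 339 in Cpr-lox (0.76 ± 0.10). With a second probe set the test was not passed by Steap4 (0.30, adjusted p = 0.0671). Saa1 was not called without Cpr-low pool 1 or 2, or within the first stamp (adjusted p = 0.0551 to 0.107), Lrg1 within the first stamp (adjusted p = 0.0807) and Lbp with median scaling (adjusted p = 0.0518). Fgl1, a fibrinogen-like protein secreted by hepatocytes, had 1431, 1571 and 1571 in Cpr-low and 3477, 5639 and 7771 in Cpr-lox (-1.80 ± 0.20, adjusted p = 2.32e-04).

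In amino acid and sugar metabolism calls went both ways. Of 56 tested genes of amino acid catabolism and the urea cycle 8 rose and 4 fell, with a median of 0.08. Those that rose numbered 2 within the first stamp, or with median scaling, 3 on leaving out Cpr-lox pool 2, 4 on leaving out Cpr-low pool 2 and 5 on leaving out Cpr-lox pool 1, or with the deposited scaling. Those that fell numbered 1 without Cpr-lox pool 2 and 2 on leaving out Cpr-low pool 2 or Cpr-lox pool 3. Haao, which cleaves a tryptophan metabolite, had 5204, 4758 and 4392 in Cpr-low and 3051, 2538 and 3169.9 in Cpr-lox (0.71 ± 0.10, adjusted p = 0.00113). Mat1a, which makes S-adenosylmethionine in liver, had 6719, 8418 and 9114 in Cpr-low and 12058, 13477 and 11833 in Cpr-lox (-0.63 ± 0.10, adjusted p = 0.00190). Gamt, which uses S-adenosylmethionine to make creatine, had 1872, 1723 and 1779 in Cpr-low and 697, 490.1 and 1039 in Cpr-lox (1.32 ± 0.19, adjusted p = 0.00143). Mat1a was lower and Gamt higher in every Cpr-low pool than in any Cpr-lox pool. Of 38 tested genes of glycogen and glucose metabolism 5 rose and 5 fell, and the median was 0.04. Rising genes of glucose metabolism numbered 1 without Cpr-lox pool 2, within the first stamp, or with median scaling, 2 with the deposited scaling and 3 on leaving out Cpr-low pool 2 or 3, Cpr-lox pool 3 or liver-Cpr-null pool 1. Falling genes of glucose metabolism numbered 3 without Cpr-low pool 1 or Cpr-lox pool 2. Gys2, liver glycogen synthase, had 931, 1018 and 1228 in Cpr-low and 1788, 1512 and 1619 in Cpr-lox (-0.63 ± 0.10, adjusted p = 0.00270), and Ppp1r3c, a subunit that targets a phosphatase to glycogen, had 1281, 1323 and 1675 in Cpr-low and 1017, 699.8 and 751 in Cpr-lox (0.79 ± 0.17). Khk, the fructose kinase, rose by 0.59 ± 0.09, and the glycolytic aldolase Aldoa fell by 0.58 ± 0.09 on the log2 scale. Genes that mark the zones of the lobule were called as follows. Around the central vein 12 rose and 1 fell of 34, a list that shares its P450 and glutathione S-transferase risers with those families, and around the portal vein 1 rose and 5 fell of 26. Uox, urate oxidase, was the periportal riser, at 0.34 ± 0.07, and the arginine transporter Slc7a2 had -0.61 ± 0.11. Falling periportal genes numbered 2 without Cpr-low pool 1 or Cpr-lox pool 2 or 3 and 3 on leaving out Cpr-low pool 2 or 3 or liver-Cpr-null pool 1, or with median scaling. Uox was not called within the first stamp, or with median scaling (adjusted p = 0.0811 to 0.0845).

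Several of the largest changes were in genes outside the groups above. Aqp8, an aquaporin of the hepatocyte, had 1220.4, 1061 and 1267 in Cpr-low and 335, 311 and 319.6 in Cpr-lox (1.82 ± 0.12, adjusted p = 5.64e-06). Ethe1, the mitochondrial persulfide dioxygenase that clears sulfide, had 3929, 3712 and 3863 in Cpr-low and 1227, 1204 and 1419 in Cpr-lox (1.57 ± 0.15, adjusted p = 7.89e-05). Car3, a carbonic anhydrase abundant in liver and fat, had 18824, 18685 and 19184 in Cpr-low and 7386, 2708 and 9299 in Cpr-lox (1.72 ± 0.32, adjusted p = 0.00606). For Aqp8 and Ethe1 the pools of each model were tight, and for Car3 the Cpr-low pools were nearly equal while the Cpr-lox pools spread widely. Rdh16f2, a short-chain dehydrogenase of the retinol dehydrogenase family, had 1586, 1439 and 2576 in Cpr-low and 645, 549 and 997 in Cpr-lox (1.33 ± 0.22). Peg3, a paternally expressed zinc finger gene, had 204, 196 and 119 in Cpr-low and 333, 516 and 475 in Cpr-lox (-1.29 ± 0.18), with a second probe set at 0.05 (adjusted p = 0.851). Rab30, a small GTPase of the Golgi, had 156, 223 and 218 in Cpr-low and 522, 703 and 539 in Cpr-lox (-1.49 ± 0.14, adjusted p = 7.89e-05). As3mt, which methylates arsenic, had 166, 251 and 247 in Cpr-low and 349, 658 and 678 in Cpr-lox (-1.25 ± 0.21). Car3 was not called within the first stamp (adjusted p = 0.0739).

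**Figure D2:**
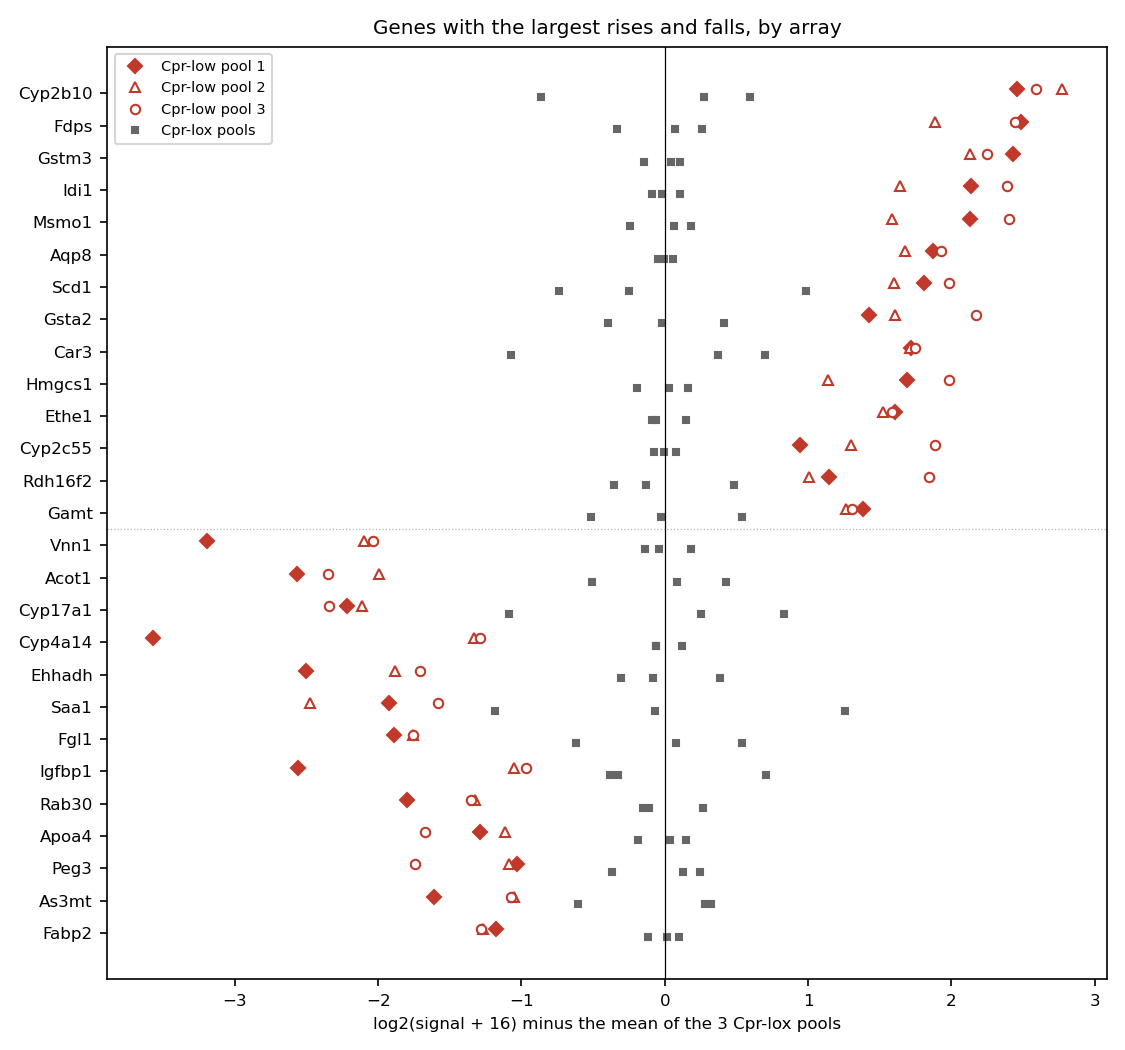
Log2(signal + 16) minus the mean of the 3 Cpr-lox pools for the 14 largest rises and 13 of the largest falls, with red symbols for the 3 Cpr-low pools (filled for pool 1) and grey squares for the Cpr-lox pools. The genes were chosen among those without overlap between the models, and Cpr-low pool 1 lies furthest out for Cyp4a14, Vnn1 and Igfbp1.

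**Figure D3:**
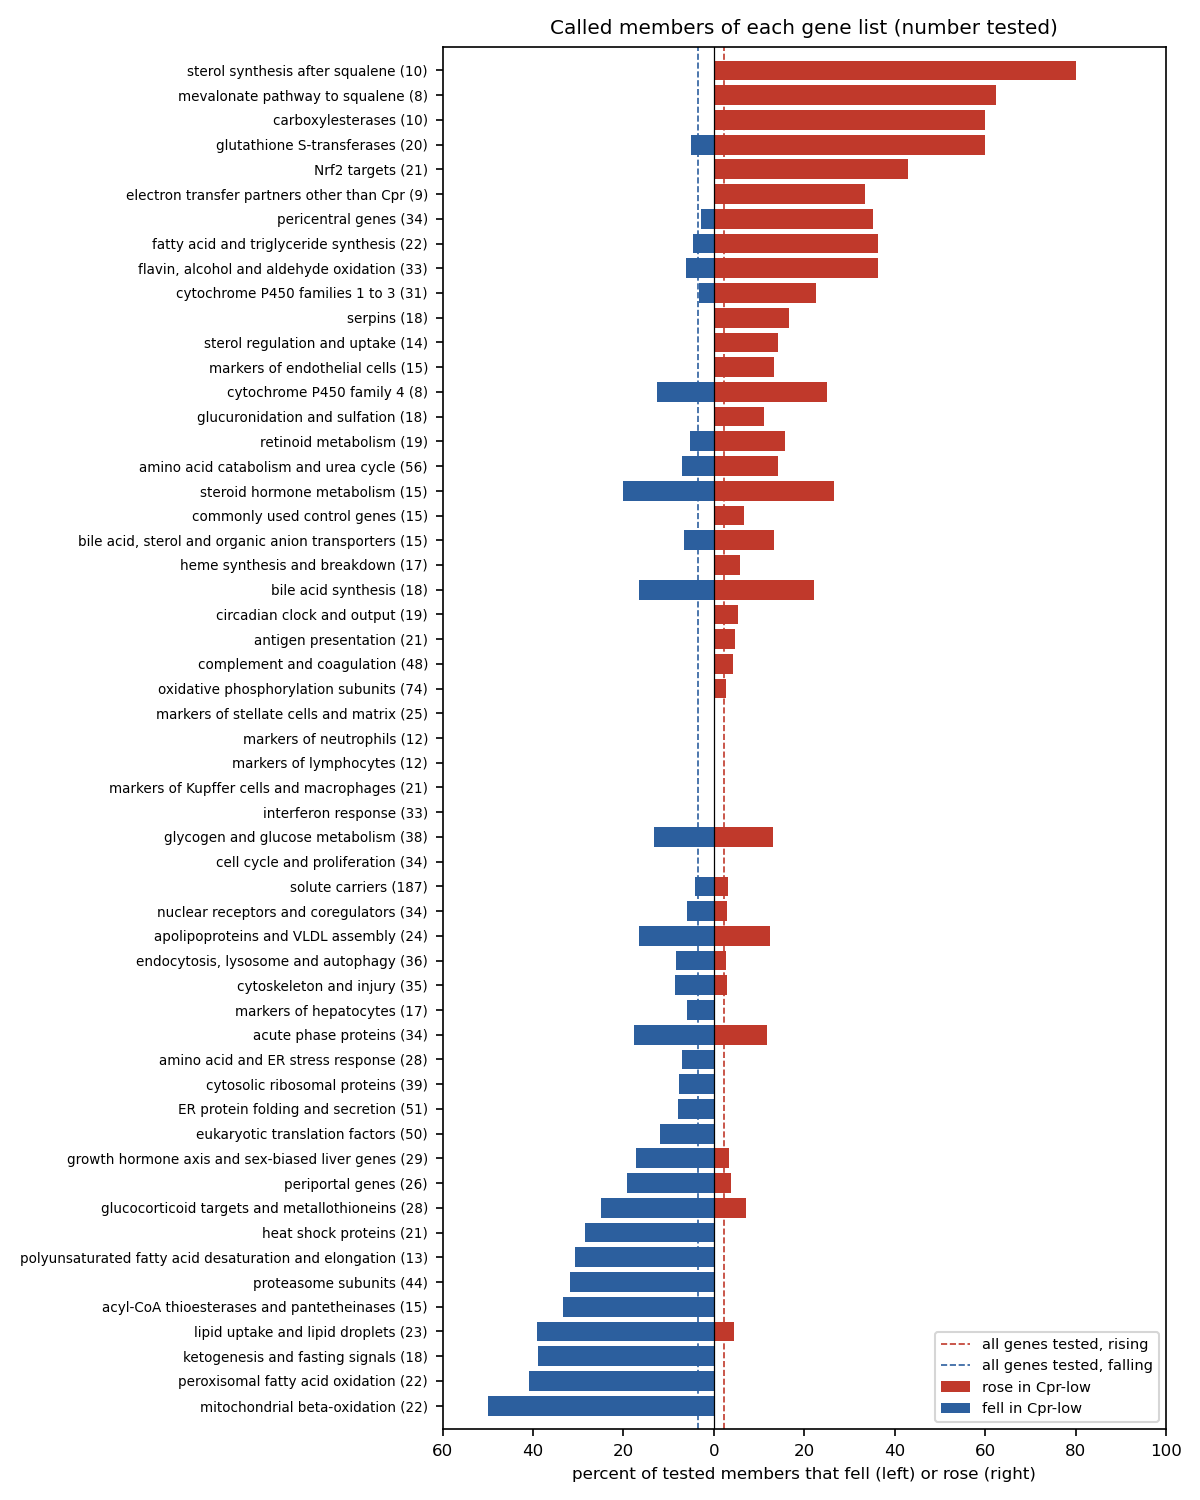
Percent of the tested members of each gene list that rose (red, to the right) or fell (blue, to the left) in Cpr-low against Cpr-lox, with the number tested in parentheses and dashed lines at 2.31% rising and 3.48% falling over all tested genes. Only lists with at least 8 tested members are drawn. Sterol synthesis after squalene, with 8 of 10 rising, is at the top, and mitochondrial beta-oxidation, with 11 of 22 falling, at the bottom.

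Where a list had 0 calls in 1 direction, some members could still differ that way at an unadjusted p under 0.05 in limma, as 8.51% of all tested genes did upward, 9.39% downward and 17.9% in either direction. Falls of that kind numbered 0 of 8 in the mevalonate pathway, 0 of 10 in sterol synthesis after squalene, 0 of 10 among carboxylesterases and 0 of 7 in the pentose phosphate pathway. They numbered 3 of 14 in sterol regulation and uptake and 2 of 17 among heme genes. Complement and coagulation had 3 of 48, oxidative phosphorylation 2 of 74, serpins 1 of 18 and circadian genes 1 of 19. Glucuronidation and sulfation had 0 of 18, electron transfer partners 0 of 9, and Nrf2 targets and antigen presentation 0 of 21 each. Rises of that kind numbered 1 of 22 in mitochondrial beta-oxidation, 1 of 22 in the peroxisomal list, 0 of 18 in the fasting list, 2 of 13 in polyunsaturated elongation, 1 of 15 among thioesterases, 0 of 21 among heat shock proteins, 1 of 44 among proteasome subunits, 1 of 50 among translation factors, 2 of 39 among ribosomal proteins and 4 of 51 among genes of folding in the endoplasmic reticulum. For the response to amino acid lack and stress of the endoplasmic reticulum they numbered 5 of 28.

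Some gene groups held few calls or none. Of 33 tested interferon-response genes and 34 tested genes of the cell cycle, 0 were called by limma in either direction, and at an unadjusted p under 0.05 they had 6 and 8, beside 17.9% of all tested genes. Of 104 tested markers of cell types other than hepatocytes 7 rose, or 6.73%, and 0 fell, where 2.31% of all genes rose and 3.48% fell. Of markers of Kupffer cells, the liver macrophages, 0 of 21 were called (2 at an unadjusted p under 0.05), and their summed signal was 10906 to 12055 in Cpr-low and 11816 to 12565 in Cpr-lox. Of these 21 markers, 15 had a log2 fold change below 0, as did 3232 of the 8879 tested genes. All Cpr-low signals lay below all Cpr-lox signals for 6 of the 21, where 10.6% of all genes did, and above them for 0. For stellate cells and matrix 0 of 25 were called (3 unadjusted), with sums of 13390.4 to 13623 in Cpr-low and 11564 to 13239 in Cpr-lox. No marker of lymphocytes (12 tested), neutrophils (12) or cholangiocytes (3) was called by limma, and unadjusted counts were 0, 1 and 0. Endothelial markers had 2 of 15 rising, Clec4g by 0.56 ± 0.14 and Ehd3 by 0.29 ± 0.08, with sums of 9244 to 9831 in Cpr-low and 8052 to 9198 in Cpr-lox. Erythroid markers had 2 of 6 rising, Alas2 by 0.71 ± 0.10 and Car1 by 0.34 ± 0.08, with sums of 2702 to 3069 in Cpr-low and 2123 to 2411 in Cpr-lox. Of adipocyte markers 2 of 5 rose, Car3 and Lpl, with sums of 20149.9 to 20627 in Cpr-low and 4048 to 10577 in Cpr-lox, most of which was Car3, at 18824, 18685 and 19184 in Cpr-low and 7386, 2708 and 9299 in Cpr-lox. Of pancreatic acinar markers 1 of 5 rose, Cela1 by 0.62 ± 0.11, with sums of 2752 to 3040.2 in Cpr-low and 2259 to 2392 in Cpr-lox. The sums of the stellate and matrix, endothelial, erythroid, adipocyte and acinar lists were higher in every Cpr-low pool than in any Cpr-lox pool. Rising endothelial markers numbered 0 without Cpr-low pool 2 or 3 or Cpr-lox pool 1, 2 or 3, within the first stamp, or with the deposited or median scaling and 1 on leaving out Cpr-low pool 1 or liver-Cpr-null pool 1, 2 or 3. Rising erythroid markers numbered 1 without Cpr-low pool 2 or 3 or Cpr-lox pool 1 or 2, within the first stamp, or with the deposited, median or quantile scaling. Rising adipocyte markers numbered 1 without Cpr-low pool 1 or Cpr-lox pool 2, or within the first stamp. The part of such cells in the other results was not tested. Among hepatocyte markers 0 rose and 1 fell of 17, with sums of 245105 to 251137 in Cpr-low and 243019 to 251515 in Cpr-lox. Albumin, Alb, had 30971, 28090.5 and 28674 in Cpr-low and 28441, 26972 and 26535 in Cpr-lox (0.10 ± 0.05, adjusted p = 0.371), and the marker that fell was the transcription factor Hnf4a (-0.27 ± 0.07, adjusted p = 0.0489). Actb, a commonly used control gene, rose by 0.46 ± 0.09. Dimmer probe sets did not pass for Hnf4a (3 of 3 further probe sets, -0.16 to 0.10, smallest adjusted p = 0.512) and Actb (0.21, adjusted p = 0.305). Clec4g was not called within the first stamp (adjusted p = 0.105), Ehd3 without Cpr-low pool 1, or within the first stamp (adjusted p = 0.0682 to 0.195) and Car1 within the first stamp (adjusted p = 0.146). Cela1 was not called within the first stamp (adjusted p = 0.0590), Hnf4a without Cpr-low pool 1 or 3, Cpr-lox pool 1, 2 or 3 or liver-Cpr-null pool 1, 2 or 3, within the first stamp, or with the deposited or median scaling (adjusted p = 0.0612 to 0.166) and Actb without Cpr-lox pool 2, within the first stamp, or with median scaling (adjusted p = 0.0555 to 0.0710).

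Cpr-low pool 1 was the outermost Cpr-low pool for most genes that fell and for a minority of those that rose. Of the 514 called genes pool 1 was the Cpr-low pool furthest from Cpr-lox in 276, between the other pools in 133 and nearest to Cpr-lox in 105. Among the 205 rising genes it was furthest in 69 and nearest in 74, and among the 309 falling genes furthest in 207 and nearest in 31. At least 1.5-fold lay between Cpr-low pools 1 and 2 in 57 genes, between pools 1 and 3 in 167 and between pools 2 and 3 in 42, while pairs of Cpr-lox pools had 54 to 90. Against the mean of pools 2 and 3, pool 1 was at least 1.5-fold higher in 15 genes and lower in 62, and 18 of these 77 were among the called genes. The median log2 difference from Cpr-lox over all genes was 0.11 for pool 1 and 0.00 for pools 2 and 3, and for pool 1 it was 0.16 in the 2960 dimmest genes and -0.01 in the 2960 brightest. Without pool 1 limma called 351 genes, 3.95% of those tested (158 rising and 193 falling), 329 of them among the 514. Within the first stamp, pool 1 against Cpr-lox gave 442, or 4.98% (145 rising and 297 falling), 282 of them among the 514, and 214 of the 514 were called both ways. With hybridization date as a block the difference is again pool 1 minus Cpr-lox. Pool 1 is the only Cpr-low array of its date, so it adds nothing to the spread in that fit. The spread comes from the other arrays of the 3 models, and pool 1 is assumed to vary as they do. Under that assumption limma called 1090 genes (12.3%), of which 624 rose (7.03%) and 466 fell (5.25%).

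Cyp4a14 and Apob were among the genes in which pool 1 lay furthest below the other Cpr-low pools, and Thrsp and Hsd3b5 among those in which it lay furthest above. Cyp4a14 had 1269 in Cpr-low pool 1 and 6065 and 6240.1 in pools 2 and 3. Apob, the structural protein of very low density lipoprotein, had 5872, 15690.1 and 17118 in Cpr-low and 17122, 16875 and 16075 in Cpr-lox, so that pool 1 was far below Cpr-lox and pools 2 and 3 were not, and it passed within the first stamp (adjusted p = 2.77e-05) but not over all pools (-0.52 ± 0.28, adjusted p = 0.377). G6pc, the glucose-releasing phosphatase of liver, had 2417, 4573 and 4960.2 in Cpr-low and 4632, 5286 and 4031 in Cpr-lox (-0.28 ± 0.21, adjusted p = 0.528). Pex11a, a peroxisome division factor, had 498, 909.6 and 1097 in Cpr-low and 1345, 1613 and 1213 in Cpr-lox (-0.79 ± 0.21, adjusted p = 0.0482), and -0.46 (adjusted p = 0.0697) without pool 1. In the other direction Thrsp, a lipogenic protein induced by thyroid hormone, had 4995, 1043 and 3210.3 in Cpr-low and 569, 502 and 1462 in Cpr-lox (1.75 ± 0.51, adjusted p = 0.0675). Hsd3b5, a male-biased hydroxysteroid dehydrogenase, had 2476, 1379 and 780.1 in Cpr-low and 684, 341 and 896 in Cpr-lox, with overlap (1.20 ± 0.36, adjusted p = 0.0732). Dbp, a transcription factor that cycles with the time of day, had 665, 276 and 542 in Cpr-low and 817, 444 and 1359 in Cpr-lox, spread widely in both models. Of the 19 tested circadian genes 1 rose, Tsc22d3, and 0 fell.

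**Figure D4:**
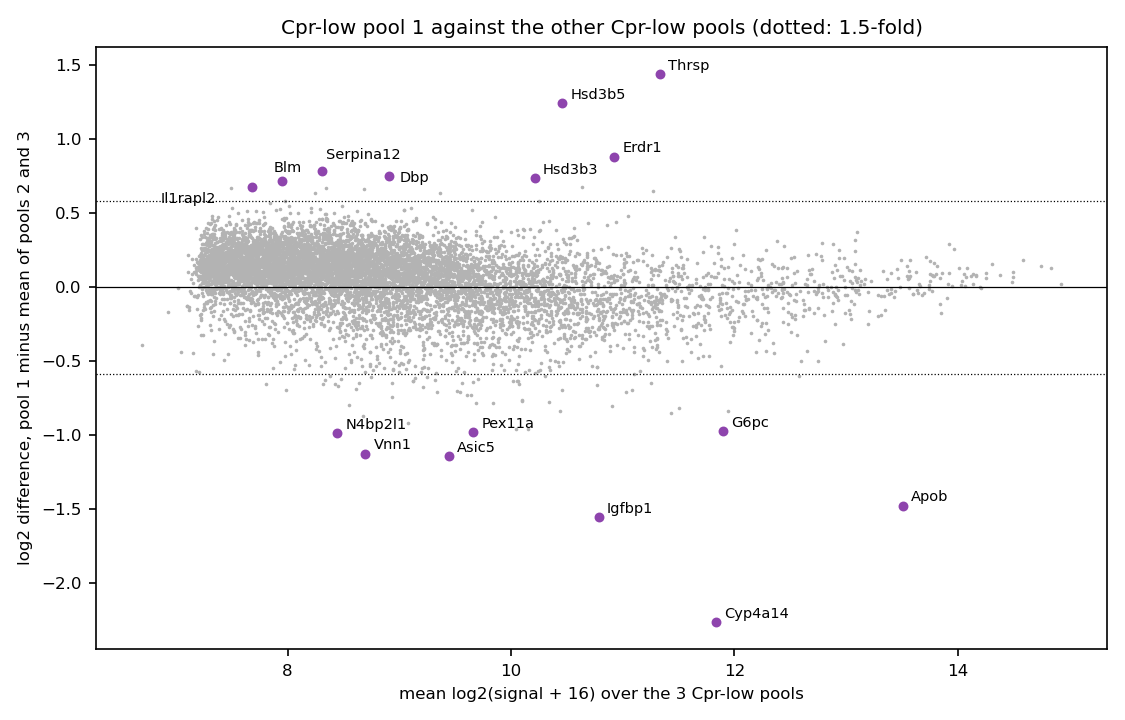
Log2 difference of Cpr-low pool 1 from the mean of Cpr-low pools 2 and 3, against the mean log2(signal + 16) over the 3 Cpr-low pools, with 1 point per tested gene, dotted lines at 1.5-fold and the 8 largest differences in each direction named. Cyp4a14 is the lowest point and Thrsp the highest, and 62 genes lie below the lower line against 15 above the upper line.

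Cpr-low liver also differed from liver-Cpr-null liver, a comparison that uses no Cpr-lox array in the difference. limma called 748 genes, 8.42% of those tested, of which 334 (3.76%) were higher and 414 (4.66%) lower in Cpr-low. Cpr-low pool 1 has an earlier hybridization stamp than the liver-Cpr-null arrays, and among the arrays of the second date alone 468 were called, 220 higher and 248 lower. Genes of drug metabolism went both ways. Of 31 P450 genes of families 1 to 3, 4 were higher and 4 lower in Cpr-low. Glutathione S-transferases had 3 higher and 4 lower of 20, and carboxylesterases 1 higher and 2 lower of 10. Gsta3 was higher by 0.62 ± 0.10 (adjusted p = 0.00215) and Ces2e by 0.70 ± 0.12 (adjusted p = 0.00346). Cyp2c55, Gstm3 and Cyp2b10 were among those lower. Cyp2c55 had 280.5, 363 and 553 in Cpr-low and 2774, 2133 and 2167 in liver-Cpr-null (-2.56 ± 0.18, adjusted p = 5.47e-06). Gstm3 had 3740.4, 3043 and 3291 in Cpr-low and 14657, 15057 and 10986 in liver-Cpr-null (-2.00 ± 0.12, adjusted p = 2.43e-06). Cyp2b10 had 3051, 3792 and 3356 in Cpr-low and 10964, 8017 and 9886 in liver-Cpr-null (-1.49 ± 0.27, adjusted p = 0.00474). No pool of either model reached into the range of the other for these 3 genes. Asns, asparagine synthetase, had 515, 363 and 359 in Cpr-low and 1176, 2234 and 1479.9 in liver-Cpr-null (-1.91 ± 0.22). The cytoskeletal actin Actg1 had 857, 1025 and 974 in Cpr-low and 3472, 4424 and 3015 in liver-Cpr-null (-1.90 ± 0.13, adjusted p = 5.47e-06), and the phospholipid-binding Anxa5 had 930.3, 828 and 945 in Cpr-low and 2993, 2564 and 3219 in liver-Cpr-null (-1.68 ± 0.09). The pantetheinase Vnn1 was lower in Cpr-low than in either other model, at 230.2, 509.6 and 534 against 1032, 1148 and 1409 in liver-Cpr-null (-1.54 ± 0.24, adjusted p = 0.00186).

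Among the genes most higher in Cpr-low than in liver-Cpr-null were 2 hydroxysteroid dehydrogenases and the glycogen-targeting Ppp1r3c. Hsd3b5 had 2476, 1379 and 780.1 in Cpr-low and 146, 123 and 129 in liver-Cpr-null (3.24 ± 0.36, adjusted p = 2.26e-04), and Hsd3b2 had 434, 418 and 351 in Cpr-low and 129.8, 86.7 and 95.2 in liver-Cpr-null (1.81 ± 0.22). Ppp1r3c had 1281, 1323 and 1675 in Cpr-low and 451, 393 and 612 in liver-Cpr-null (1.54 ± 0.17, adjusted p = 2.07e-04). Noct, which encodes the deadenylase-related protein nocturnin, had 501, 461 and 701 in Cpr-low and 254, 231 and 188 in liver-Cpr-null (1.24 ± 0.15). All of these had Cpr-low signals above every liver-Cpr-null signal. Asic5, an ion channel of the acid-sensing family, had 394, 791 and 999 in Cpr-low and 109, 140.0 and 289.6 in liver-Cpr-null (1.94 ± 0.38, adjusted p = 0.00774). The 12 genes with the largest differences between these models were called under all 12 alternatives run for this comparison. By list, sterol synthesis after squalene had 2 of 10 genes higher and 0 lower in Cpr-low, and the mevalonate pathway 1 of 8 higher and 0 lower. Fatty acid and triglyceride synthesis had 6 of 22 higher and 1 lower, with Acly at 1518, 1449 and 1692 in Cpr-low and 883, 836 and 928 in liver-Cpr-null (0.80 ± 0.08, adjusted p = 1.52e-04). Kupffer cell markers had 0 of 21 higher and 12 lower in Cpr-low, with summed signals of 10906 to 12055 in Cpr-low and 15625 to 19859.6 in liver-Cpr-null, and their part in the other differences was not tested. The beta-actin ratio was 1.25, 1.26 and 1.17 in Cpr-low and 1.97, 1.99 and 1.62 in liver-Cpr-null. The Gapdh ratio did not show that gap, at 2.72, 2.51 and 2.36 in Cpr-low and 2.34, 2.48 and 2.43 in liver-Cpr-null. For ER protein folding and secretion 0 of 51 were higher and 17 lower in Cpr-low.

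**Figure D5:**
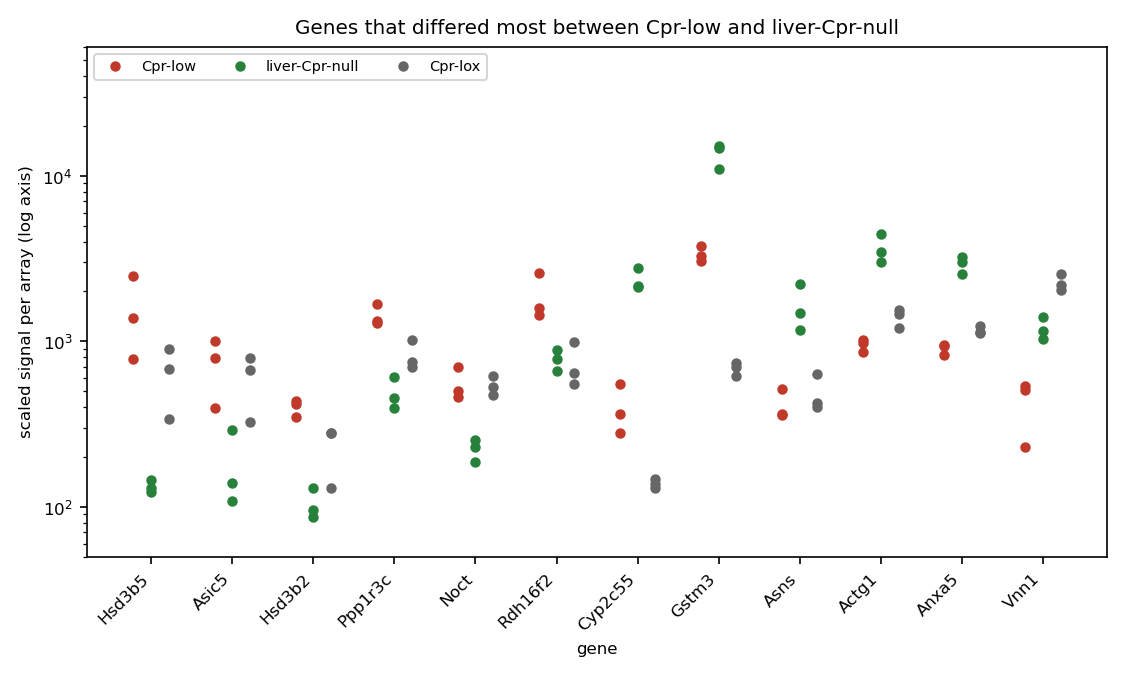
Scaled signal per array (log axis) of the 6 genes most higher and the 6 most lower in Cpr-low than in liver-Cpr-null among called genes without overlap between their arrays, with red points for Cpr-low, green for liver-Cpr-null and grey for Cpr-lox. Hsd3b5 shows the widest gap with Cpr-low above, and Cyp2c55 the widest with Cpr-low below.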

How the data were processed

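Liver RNA was measured on 9 Affymetrix MOE430A arrays, 3 RNA pools per model. The deposited intensity of each probe set is on a linear scale. How the authors summarised probes and scaled arrays before deposit was not given in the sources used here, and per the file headers the run settings record hybridization and scanning only. Genes were named from the platform annotation of the probe sets. Of 22690 probe sets 64 array controls, 691 with several symbols and 1555 with none were left out, and 20351 of the others matched the RefSeq gene table by gene number.

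Arrays were scaled to a common mean trimmed by 2% at each end and taken to log2(signal + 16). The filter kept the upper 60% of probe sets by their mean over all 9 arrays, then the brightest per gene, and 2500 genes had several. limma 3.58.1 in R 4.3.3 fitted all 9 arrays with an intensity trend, and two-sided p-values were adjusted over 8879 genes by the Benjamini-Hochberg method. In 20 simulations of the comparison with Cpr-lox on 8879 genes, 87.8% of 1.5-fold and 98.5% of 2-fold changes were recovered and 4.66% of calls were false. Noise there was drawn independently for each gene and array, with no outlying pool and no date difference. These rates describe that setting and do not measure the false calls in the data. The number of arrays limits the precision. Figures were drawn with matplotlib 3.10.9.

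The genes, lists and tests were chosen with earlier results of these data known. Named genes were the 14 largest called rises and falls without overlap, up to 5 called members of each list with at least 3, taken by smallest adjusted p, the 8 genes in each direction in which Cpr-low pool 1 differed most from the other Cpr-low pools, the 6 in each direction with the largest called difference from liver-Cpr-null, and a set of standard genes and cell type markers. Of these genes, 1 is not reported here. Exceptions are marked where they occur. Lists were described by counts and medians, without a test. Alternatives covered the pseudocount, scaling, filter, probe set rule, trend, arrays fitted, pool number, hybridization date and each pool left out.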

Additional observations from a re-analysis of the deposited data

How the results depend on the processing

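Pseudocounts of 1 and 64, quantile normalization, both other filters, the mean of a gene's probe sets, no intensity trend and a fit of 6 arrays gave 414 to 526 calls against Cpr-lox, beside 514. Of 162 called genes followed by name 95 were called under every alternative. Median scaling gave 102 rising and 249 falling calls, and the deposited scaling 137 rising (31.7% of 432 calls) and 295 falling. With hybridization date as a block the difference equals Cpr-low pool 1 minus Cpr-lox, and 1090 genes were called, 624 rising and 466 falling, with 284 at 1.5-fold or more, 199 of them falling, while the first date alone gave 275 and 194. Without 1 pool the calls ranged between 274 and 494 (rising 114 to 209, falling 160 to 310), those of 1.5-fold or more between 135 and 202 (rising 67 to 108, falling 63 to 114). The smallest number of calls, 274, was without Cpr-lox pool 2, with 114 rising and 160 falling. Against liver-Cpr-null the calls without 1 pool ranged between 398 and 796 (rising 155 to 373, falling 238 to 423), those of 1.5-fold or more between 168 and 225 (rising 58 to 79, falling 103 to 156), and the lowest numbers came from leaving out liver-Cpr-null pool 1 (398), liver-Cpr-null pool 2 (403) or Cpr-low pool 2 (460). The second date alone gave 468, with 220 higher and 248 lower, and hybridization date as a block, an alternative added after seeing the data, gave 514, with 224 higher and 290 lower. With pool number as a replicate block 673 genes were called against Cpr-lox, 267 rising and 406 falling, and 1047 against liver-Cpr-null, 505 of them higher. Deviations of same-numbered Cpr-low and Cpr-lox pools correlated at 0.376, -0.010 and 0.465. Cpr-low pools 1 and 3 correlated best with the Cpr-lox pool of their own number, and pool 2 did not. The pools are described as independent, so the fit used here left pool number out. Whether same-numbered pools share more than a number was not tested further. A scan-date block was not run, because the first scan date holds Cpr-lox arrays only. The causes of these changes were not tested.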

Other observations

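Among solute carriers, the membrane transporters of small molecules, 6 rose and 8 fell of 187 tested, with a median log2 fold change of 0.07 beside 0.04 for all genes, of which 2.31% rose and 3.48% fell. The counts among carriers are close to those shares. The list was filled by symbol, and 1 riser, Slc9a3r1 (0.65 ± 0.10), encodes a scaffold protein and not a carrier. The mitochondrial nucleotide carrier Slc25a33 had signals of 375, 459 and 387 in Cpr-low and 753, 792 and 712 in Cpr-lox (-0.87 ± 0.09, adjusted p = 1.20e-04). Slc39a11, a zinc transporter, had 421, 379 and 377 in Cpr-low and 297, 281 and 281 in Cpr-lox (0.43 ± 0.07, adjusted p = 0.00224). Neither gene overlapped between the models. Falling solute carrier genes numbered 4 without Cpr-low pool 1 and 5 on leaving out Cpr-lox pool 2.

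Of 36 tested genes of endocytosis, lysosome and autophagy 1 rose and 3 fell. Grn, which encodes the lysosomal protein progranulin, had 2753, 3575 and 3637 in Cpr-low and 5326, 6649 and 5812 in Cpr-lox (-0.84 ± 0.13, adjusted p = 0.00183), and Gabarapl1, an autophagosome protein, had 6542, 7497 and 7388 in Cpr-low and 5510.2, 4666 and 5181 in Cpr-lox (0.48 ± 0.08, adjusted p = 0.00282). A second Gabarapl1 probe set did not pass, at 0.40 (adjusted p = 0.0899). The cathepsin gene Ctsz had -0.39 ± 0.08. Of 21 Nrf2 targets, the genes of the electrophile response, 9 rose and 0 fell, with a median of 0.24, and 7 of the risers are glutathione S-transferase or pentose phosphate genes already described. Rising Nrf2 targets numbered 4 within the first stamp, or with median scaling and 5 on leaving out Cpr-low pool 3. Of retinoid genes 3 rose and 1 fell of 19, of nuclear receptors and coregulators 1 rose and 2 fell of 34, and of complement and coagulation genes 2 rose and 0 fell of 48. Over all genes 2.31% rose and 3.48% fell, and apart from the retinoid list these counts are near that. Falling nuclear receptor genes numbered 0 without Cpr-low pool 1, Cpr-lox pool 2 or 3 or liver-Cpr-null pool 3, or with the deposited or median scaling and 1 on leaving out Cpr-low pool 2 or 3, Cpr-lox pool 1 or liver-Cpr-null pool 1 or 2. Rising complement and coagulation genes numbered 0 within the first stamp, or with median scaling, 1 on leaving out Cpr-low pool 2 or Cpr-lox pool 2, or with the deposited scaling and 4 on leaving out Cpr-lox pool 3. Cytoskeleton and injury genes had 1 rising and 3 falling of 35, and the falling ones numbered 0 without Cpr-low pool 1 or 2 or Cpr-lox pool 2 and 1 on leaving out Cpr-lox pool 3, or with median scaling. Among serpins 3 rose and 0 fell of 18. Rising serpins numbered 0 with median scaling and 1 on leaving out Cpr-low pool 2 or Cpr-lox pool 2, within the first stamp, or with the deposited scaling. The subunits of oxidative phosphorylation had 2 rising and 0 falling of 74, antigen presentation genes 1 and 0 of 21, and major urinary proteins 0 and 0 of 2 by limma. Rising oxidative phosphorylation genes numbered 0 without Cpr-low pool 1 or 2 or Cpr-lox pool 2, or with the deposited or median scaling and 1 on leaving out Cpr-low pool 3, Cpr-lox pool 1 or 3 or liver-Cpr-null pool 1 or 3, or within the first stamp. Falling genes of endocytosis and lysosome numbered 6 within the first stamp. Gabarapl1 was not called within the first stamp (adjusted p = 0.115).

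Of the response to amino acid lack and stress of the endoplasmic reticulum 0 rose and 2 fell of 28 tested. The falling genes numbered 1 without Cpr-low pool 1, 2 or 3, Cpr-lox pool 1 or 2 or liver-Cpr-null pool 1, or within the first stamp. Atf5, a transcription factor of that response and named after its value was seen, had 1077, 1356 and 994 in Cpr-low and 2259, 2941 and 2198 in Cpr-lox (-1.10 ± 0.15, adjusted p = 7.43e-04). Sdc4, a heparan sulfate proteoglycan also named after its values were seen, had 2 probe sets called in opposite directions, at 1.05 (adjusted p = 0.0459) and -0.69 (adjusted p = 0.00404).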
